A study of Mus musculus with 6 samples.

Results

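The regions described here were the 1000 widest stretches of open chromatin found in an immortalized mouse osteoblast line with and without Fam20c, the gene of a Golgi kinase that phosphorylates secreted proteins. They were chosen by width alone, a measured value, after the peaks of 6 ATAC-seq libraries had been merged wherever they shared at least 1 bp. A peak is a stretch in which the Tn5 transposase cut more often than its local background predicted. Merging gave 89410 regions, of which 87268 lay on chromosomes 1 to 19. The 1000 widest of these made up 1.15% of the regions and 3.91% of the merged base pairs, or 2.55 Mb of 65.3 Mb. OB Fam20c f/f cells carried a floxed Fam20c allele and were bought as an immortalized line. OB Fam20c KO cells were made from them with a lentivirus that expresses Cre recombinase, and the labels call the first group control and the second Fam20c knockout. Each group had 3 libraries, and nothing in the sources used here said that these came from separate cultures, so that spreads and p-values below measure the difference between libraries, which may be technical. Whether the knockout cells were a single clone, and whether the f/f cells had received any virus, was not given in the sources used here.

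Open chromatin is DNA that is little covered by nucleosomes, so that the transposase and transcription factors can reach it. Most open stretches are short and mark an enhancer or a promoter. Wide ones are known from promoters rich in CG dinucleotides, from clusters of neighbouring regulatory elements, and from genes with a central role in the identity of a cell. In osteoblasts such genes include the transcription factors Runx2 and Twist1 and the genes of fibrillar collagens.

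The lists held between 62781 and 74797 peaks in 5 libraries and 32958 in OB Fam20c KO replicate 3, and values that this short list moves are given with and without it. The number of reads behind each list was not taken from the peak lists and is not given here. Of 12 osteoblast and mesenchymal marker genes, 11 had a region at an end of the gene, 10 of them with a peak in all 6 libraries, and Postn had none. Of 16 marker genes of other lineages, 1 had such a region (Myod1, 438 bp wide and present in 4 libraries). Fam20c itself lay at one of the wide regions. Its start on chromosome 5 was inside a region of 2649 bp that ranked 284 by width, and all 6 lists covered that start. In this region the f/f lists covered 1902, 2313 and 2468 bp and the KO lists 2561, 2586 and 1828 bp, so the groups overlapped. The peaks thus lay on the promoter in all 6 libraries, and a loss of exons inside the gene could not be read from them.

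Promoters of 6 genes are printed to show what kind of sequence lay inside these regions. Each has 250 bases before the transcription start and 50 after it, from RefSeq on GRCm38.p6, whose coordinates are those of mm10, with every CG dinucleotide in capitals. The first 3 belong to regions with 1 start in which no f/f list had a peak on the start and every KO list had one. Ptch1 and Kmt2a were among the 3 widest of these, and Atxn2 was the region with the largest excess of KO over f/f width among them. The last 3 belong to the 3 widest regions with 1 start that was covered in all 6 lists. Ptch1 is at chr13:63565686-63565985 (minus strand), Kmt2a at chr9:44881240-44881539 (minus strand), Atxn2 at chr5:121711359-121711658 (plus strand), Zmiz1 at chr14:25458935-25459234 (plus strand), Col5a1 at chr2:27886175-27886474 (plus strand) and Fscn1 at chr5:142960105-142960404 (plus strand).
Ptch1: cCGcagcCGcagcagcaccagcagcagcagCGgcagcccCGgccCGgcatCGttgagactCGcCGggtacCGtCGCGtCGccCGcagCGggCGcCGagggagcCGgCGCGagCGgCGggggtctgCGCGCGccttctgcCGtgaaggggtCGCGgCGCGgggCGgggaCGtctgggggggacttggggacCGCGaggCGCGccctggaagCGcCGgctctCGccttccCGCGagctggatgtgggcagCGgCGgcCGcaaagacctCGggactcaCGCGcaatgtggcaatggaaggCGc
Kmt2a: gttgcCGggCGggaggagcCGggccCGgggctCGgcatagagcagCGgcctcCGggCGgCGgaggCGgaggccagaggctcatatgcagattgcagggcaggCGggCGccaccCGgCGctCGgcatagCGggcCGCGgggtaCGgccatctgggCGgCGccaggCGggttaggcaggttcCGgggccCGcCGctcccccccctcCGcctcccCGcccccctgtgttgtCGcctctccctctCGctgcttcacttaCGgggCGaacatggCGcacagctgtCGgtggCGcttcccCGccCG
Atxn2: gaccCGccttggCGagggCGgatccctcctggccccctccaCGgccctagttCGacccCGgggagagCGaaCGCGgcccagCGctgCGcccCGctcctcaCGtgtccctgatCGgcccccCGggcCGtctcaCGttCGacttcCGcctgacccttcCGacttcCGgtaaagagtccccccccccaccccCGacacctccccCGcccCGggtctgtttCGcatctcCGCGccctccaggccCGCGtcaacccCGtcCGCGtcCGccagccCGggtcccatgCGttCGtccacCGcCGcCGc
Zmiz1: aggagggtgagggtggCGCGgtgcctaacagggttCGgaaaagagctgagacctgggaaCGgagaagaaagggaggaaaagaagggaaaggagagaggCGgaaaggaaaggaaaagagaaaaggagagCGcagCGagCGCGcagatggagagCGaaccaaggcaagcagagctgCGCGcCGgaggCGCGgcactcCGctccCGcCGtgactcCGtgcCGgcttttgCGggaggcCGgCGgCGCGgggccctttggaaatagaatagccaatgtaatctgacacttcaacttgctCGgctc
Col5a1: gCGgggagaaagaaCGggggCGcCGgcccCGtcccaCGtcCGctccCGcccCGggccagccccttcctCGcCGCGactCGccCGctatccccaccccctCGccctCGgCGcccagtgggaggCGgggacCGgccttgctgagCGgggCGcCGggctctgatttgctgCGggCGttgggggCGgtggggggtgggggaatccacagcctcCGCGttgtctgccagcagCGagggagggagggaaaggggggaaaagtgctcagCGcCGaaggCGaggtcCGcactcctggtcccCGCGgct
Fscn1: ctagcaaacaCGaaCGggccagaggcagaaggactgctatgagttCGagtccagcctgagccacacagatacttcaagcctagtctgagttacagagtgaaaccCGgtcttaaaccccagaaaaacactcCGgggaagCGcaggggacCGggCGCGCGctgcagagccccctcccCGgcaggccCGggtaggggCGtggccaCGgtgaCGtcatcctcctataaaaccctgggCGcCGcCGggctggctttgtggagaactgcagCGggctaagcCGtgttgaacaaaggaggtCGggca

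The Ptch1 promoter held 47 CG dinucleotides and was 76.3% G or C. The Zmiz1 promoter held 26 and was 60.7% G or C. The 765 promoters of protein-coding genes whose start lay in a wide region had a median of 66.7% G or C and 27 CG dinucleotides, and the 677 in the next 1000 regions by width had 66.0% and 25. All 20063 promoters of the table on chromosomes 1 to 19 had medians of 57.0% and 14, and the 8721 whose start lay in no region had 49.0% and 4. These promoters were also described by 7 short motifs, each counted once per promoter on either strand. GGGCGG, the core of the GC box bound by SP factors, stood in 75.3% of the promoters in wide regions, in 75.8% of those in the next 1000 regions, in 66.7% of those in regions below rank 2000, in 47.0% of all promoters and in 1740 of the 8721 in no region. The members did not stand apart from the next ranks in this. TATAAA, the TATA box, stood in 5.49% of the promoters in wide regions against 12.7% of all promoters, and TGTGGT, the core of the RUNX site, in 6.80% against 14.8%. CCAAT (NF-Y) stood in 30.6% against 38.1%, GGAATG (TEAD) in 9.28% against 13.4%, CAGCTG (an E-box) in 14.4% against 15.6% and TGACTCA (AP-1) in 3.79% against 4.70%. These are counts of letters in a window of 300 bases near starts, and they say nothing of the parts of a region farther away.

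The regions ran from 2180 bp to 4990 bp, with a median of 2449 bp and quartiles of 2286 bp and 2698 bp. The median over all regions was 639 bp, and the next 1000 by width had a median of 2038 bp. Width passed 3 kb in 117 regions. On chromosomes X and Y a further 22 regions reached the width of the narrowest member, and these were not counted. The edge of the set was no natural break. The last 5 inside were those at Ptk2b, Gm46900 with Steap1, Sema3b, Myl6 with Myl6b, and Dcun1d1, the last of 2180 bp. The first 5 outside were at Trafd1 and Adnp2, also of 2180 bp, and at Cap1, Irf2bp1 and Lrig1, of 2179 to 2178 bp.

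Most of the width was a single long peak rather than a chain of short ones. In 877 of the 1000 regions 1 peak of 1 library covered at least 90% of the merged width, and the median of the longest single peak was 2367 bp. In 290 regions every library had exactly 1 peak, while in 12 every library had 2 or more, and no list had more than 4 peaks in a region. The longest single peak, of 3923 bp in the third f/f library, lay at Col5a1. All 6 lists together covered 56.6% of the base pairs of the regions, and 1 list alone 5.94%. The core covered by all 6 had a median of 1465.5 bp, made up at least 50% of the width in 655 regions and was missing in 28.

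A peak of every library was found in 974 of the 1000 regions, or 97.4%, beside 33.4% of all regions. Over the 2000 widest regions, which include these, the share was 95.7%, so it was not particular to the members. All of the 24 regions with a peak in 5 libraries lacked one in KO replicate 3. The region in 4 libraries, at Aopep and Fancc, lacked one in f/f replicate 1 and KO replicate 3. The region in 3 libraries lay inside Ak4, which codes for a mitochondrial adenylate kinase, at chr4:101457257-101459518. There the f/f lists covered 1269, 1272 and 2262 bp and the KO lists 0 bp each. It was the single member with a peak in 3 f/f and 0 KO libraries (over all 87268 regions the share was 3.78%), and 0 members had one in 3 KO and 0 f/f libraries (0.173% of all regions). Of the 579 regions within 5 Mb of it on chromosome 4, 26.6% had a peak in 3 f/f and 0 KO libraries, beside 4.80% of the other regions of that chromosome and 3.56% of those of other chromosomes. The 2 other members in that window kept KO peaks. One, at 0610043K17Rik and E130102H24Rik, was covered over 2983, 2986 and 3072 bp in f/f and over 2539, 2627 and 694 bp in KO. The other, at Usp24, was covered over 2270, 1972 and 2194 bp and over 2063, 2103 and 1167 bp.

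Covered width is the sum of a library's peaks inside a region, and over all members it differed more within the groups than between them. The f/f lists covered 1.98, 2.21 and 2.36 Mb, or 77.8%, 86.6% and 92.4% of the base pairs of the members. The KO lists covered 2.11, 2.19 and 1.60 Mb, or 82.5%, 86.0% and 62.8%. KO replicates 1 and 2 fell between the f/f libraries, and KO replicate 3 lay below all of them. Per region this was 2183 ± 188 bp (SD, n = 3) in f/f and 1967 ± 318 bp (SD, n = 3) in KO, a difference of -216 bp, which was -33.8 bp without KO replicate 3. No test was made of these widths, since width chose the members. The widest coverage came from f/f replicate 3 in 506 regions and from KO replicate 3 in 7, and the narrowest came from KO replicate 3 in 781 and from f/f replicate 1 in 151. KO replicate 3 left 249 regions covered over less than 50% of their width, against 3 to 55 in the other lists. The members nevertheless made up a larger share of its short list, 7.33% of its base pairs beside 4.20% to 5.01% in the other lists. The ratio between the widest and the narrowest library was 1.48 in the median region with a peak in all 6, passed 2 in 206 regions and was at most 1.1 in 59.

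**Figure D1:**
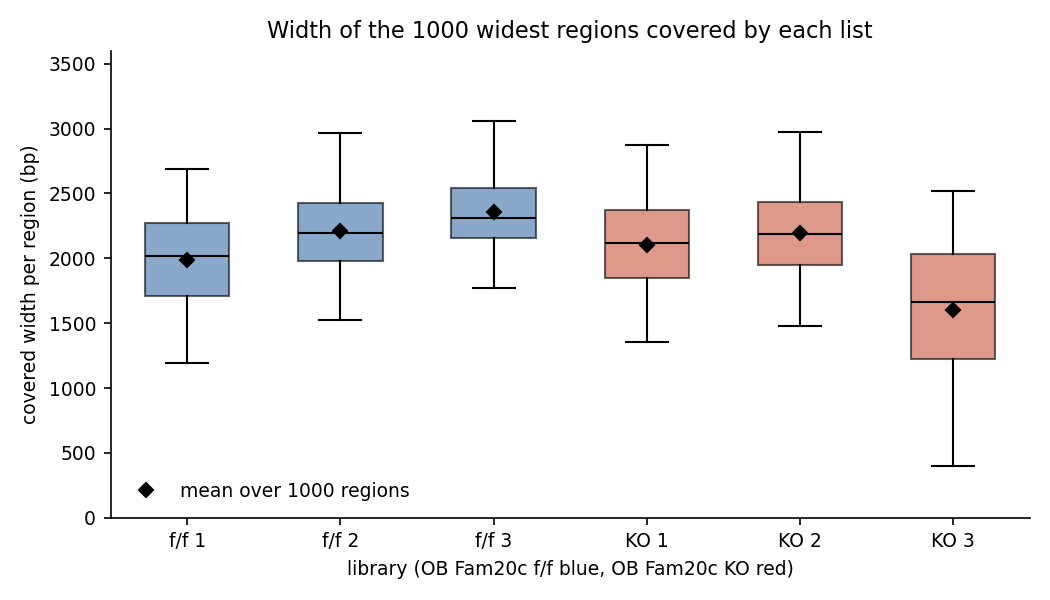
Covered width in bp (y axis) of the 1000 regions in each of the 6 libraries (x axis), with boxes for the quartiles, whiskers from the 5th to the 95th percentile and a diamond for the mean. The means of KO replicates 1 and 2 lie between those of f/f replicates 1 and 3, and the mean of KO replicate 3 is the lowest.

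Some regions hardly varied, and those named here were picked after their values were seen. The region of 3620 bp at Rn18s-rs5, a ribosomal RNA related sequence on chromosome 17, was covered over 3583 to 3620 bp in all 6 lists. As a percentile within each list, its best peak stood at a mean of 99.98 by −log10 q but of 11.15 by fold. How reads that map to several places were treated was not given in the sources used here, and their part in this region was not tested. A region inside Runx2, the master transcription factor of osteoblasts, was covered over 2591, 2602 and 2626 bp in f/f and 2614, 2647 and 2613 bp in KO. It lay at chr17:44733951-44736704, away from the ends of the gene, and the groups overlapped.

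Wide regions stood at gene ends far more often than regions in general, and only a little more often than the next ones by width. An end of a protein-coding gene, either the first or the last base of its RefSeq span, lay in 601 of the 1000 (60.1%), in 54.3% of the next 1000 and in 11.7% of all regions. A wider stretch reaches an end more easily, so the single base with the highest −log10 q was also placed: it lay within 1 kb of an end in 53.0% of the members, in 53.0% of the next 1000 and in 14.6% of all. By this measure the members did not stand apart from the ranks just below them. A further 262 lay inside a protein-coding gene without reaching an end, 137 shared no base with a protein-coding gene, and 79 shared none with a gene of any type. Among the 972 members off chromosome 18, for which no promoters were in the table, 557 (57.3%) held a transcription start of a protein-coding gene, beside 50.9% of the next 1000 and 10.8% of all regions. Starts of 622 genes lay in them. In 490 members the starts belonged to 1 gene and in 66 to 2 genes, and in 65 of these 66 the genes ran on opposite strands. Whether their starts diverged, as in a bidirectional promoter, was not checked. In the 410 members with exactly 1 start, the region reached a median of 969 bp upstream and 1547.5 bp downstream, and 272 (66.3%) reached farther into the gene than away from it.

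**Figure D2:**
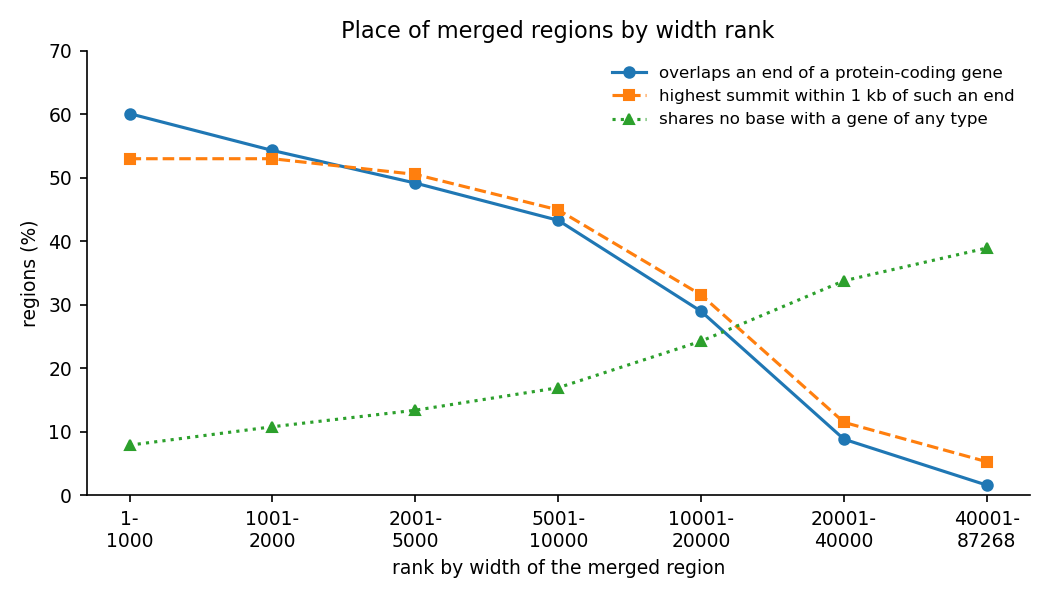
Share of merged regions in % (y axis) that overlapped an end of a protein-coding gene, that had their highest summit within 1 kb of such an end, or that touched no gene, by rank of width (x axis). The first share falls from 60.1% in the 1000 widest to 1.60% in the narrowest ranks, while the share without a gene rises from 7.90% to 38.9%.

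Genes at the widest regions included signalling, chromatin and matrix genes. The widest, of 4990 bp, lay at the start of Zmiz1, a coactivator related to PIAS proteins, and was covered over 2725, 3407 and 3994 bp in f/f and over 3551, 4099 and 1790 bp in KO. The next, of 4291 bp, lay at Gdnf, a neurotrophic growth factor, and was covered over 3205, 3516 and 3908 bp and over 3529, 3890 and 3484 bp. In neither did the groups separate. Ubtf, the upstream binding factor of RNA polymerase I, followed with 4164 bp, Plekho1, a regulator of Smad ubiquitination in bone, with 4053 bp, and Lzts2, which holds beta-catenin out of the nucleus, with 3982 bp. Col5a1, a chain of the fibrillar collagen V, stood at 3929 bp and was among the most evenly covered of these, with 3862, 3860 and 3923 bp in f/f and 3369, 3546 and 3814 bp in KO. Its lowest f/f value nevertheless exceeded its highest KO value. Myc, a growth-promoting transcription factor, stood at 3928 bp and was covered over 2981, 3466 and 3712 bp and over 3479, 3566 and 3147 bp.

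The remaining 13 of the 20 widest ran from 3841 down to 3655 bp. They lay at Btn1a1 together with 2 tRNA genes, at Acvr1b (an activin receptor), Fscn1 (the actin bundler fascin), Hivep2, Arid2 (a subunit of the PBAF chromatin remodeller), Col27a1, Kif26b, Enah (an actin regulator), Ext1 (heparan sulfate synthesis), Ccdc6 and Hdac5 (a histone deacetylase), and at 2 stretches of chromosome 8 without a gene. The first of these 2 stood 46 bp from the span of Ssbp4. The second lay 6550 bp from Zswim4, its nearest protein-coding gene. Col27a1 shows how far a single list could fall behind: it was covered over 3093, 3455 and 3627 bp in f/f, over 3335 and 3099 bp in KO replicates 1 and 2, and over 467 bp in KO replicate 3.

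Gene lists drawn up with earlier results known gave more detail. Of all 20665 protein-coding genes on chromosomes 1 to 19, 3.43% had a member at an end. Of 30 early response genes, which answer within minutes to growth factors, 7 (23.3%) had one, led by Myc, Zfp36l1, Jun and Klf10. Jun, a subunit of AP-1, was covered over 3137, 3121 and 3217 bp in f/f and over 2175, 3021 and 2468 bp in KO, so that its lowest f/f value exceeded its highest KO value. Of 42 Wnt and Hippo pathway genes, 8 had one, led by the Wnt receptor gene Fzd7 (3085 bp), Ajuba, the corepressor gene Tle1 and the ligand gene Wnt5a. Of 52 osteoblast and mesenchymal transcription factors, 9 (17.3%) had one, led by Foxc1, Nfix, Sox11 and Nfib. Twist1, a brake on osteoblast maturation, was covered over 2056, 2109 and 2334 bp in f/f and over 1907, 2047 and 1778 bp in KO. Runx1 had a member inside the gene, covered over 2350, 2355 and 2353 bp in f/f and over 1960, 1643 and 1525 bp in KO. Both lay in the group with f/f above KO, and both were picked after their values were seen. They do not stand for the list. In the members at an end of Foxc1, Nfix, Sox11, Nfib, Meis1, Shox2 and Prrx1 the groups overlapped.

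Matrix genes had a member at an end in 7 of 44 cases (15.9%), led by Col5a1, the membrane collagenase gene Mmp14, the perlecan gene Hspg2 and Col1a2. Col1a2, a chain of collagen I, was covered over 2418, 2554 and 2569 bp in f/f and over 2423, 2437 and 2367 bp in KO, which overlapped. TGF-beta and BMP pathway genes had one in 5 of 32 (15.6%), namely Smurf1, Nog, Tgfbr1, Skil and Grem1. Smurf1, a ubiquitin ligase for Smads, was covered over 1560, 2001 and 1724 bp in f/f and over 2576, 2143 and 2033 bp in KO. Cytoskeleton and adhesion genes had one in 6 of 40, led by Tagln2, Actg1, Actn1 and Tpm4. Tagln2, a calponin family member, was covered over 2640, 2729 and 2801 bp in f/f and over 3018, 3005 and 2938 bp in KO. In Smurf1 and Tagln2 every KO library lay above every f/f library.

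Ribosomal protein genes had a member at an end in 2 of 74 (2.70%), Rpl19 and Rpl7, near the share over all genes, and 89.2% of them had some region there. Hox genes had 0 of 39 and genes of other lineages 0 of 29, counts too small to set against 3.43%. Any region at an end was found for 30.8% of the Hox genes and 17.2% of those of other lineages, beside 53.6% of all protein-coding genes. Of 20 noncoding and nuclear RNA genes 2 had one, Mir22hg and Malat1. Histone genes had one in 13 of 67 (19.4%), but these shared 6 regions, since histone genes stand in clusters, and H1f10, caught by its name, is not replication-dependent. The region at H2ac13, H2bc13 and H3c10 was covered over 1991, 2137 and 2434 bp in f/f and over 1835, 1722 and 1466 bp in KO. The region at H2ac20, H2ac21 and H2bc21 was covered over 2178, 2440 and 2290 bp and over 2363, 2247 and 2108 bp. These were named for their number of genes, ties going to the wider region, along with a region of 2549 bp on chromosome 18 inside 22 overlapping gene spans of the gamma protocadherin cluster. Genes of tRNAs, which RNA polymerase III transcribes, lay in 12 members (1.20%, beside 0.182% of all regions), and 26 of the 391 annotated ones were in them. A wider stretch touches any gene more easily, and the next regions by width were not compared in this. The fullest, at chr19:12009228-12012644, held 5 tRNA genes and was covered over 3091, 2730 and 3279 bp in f/f and over 2415, 3039 and 2226 bp in KO.

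The f/f and KO lists placed peaks differently within the regions, a pattern found by looking at the data. In the 410 members with exactly 1 start, a peak covered that start in 88.3%, 90.0% and 91.5% of cases in f/f and in 99.5%, 99.5% and 94.9% in KO. All 3 KO libraries, the one with the shortest list included, exceeded all 3 f/f libraries. The means were 89.9% ± 1.59 (SD, n = 3) and 98.0% ± 2.68 (SD, n = 3), a difference of 8.05 percentage points, and of 9.59 without KO replicate 3. No test was made of this, since the same peak positions chose the members: where the f/f lists leave a gap at the start, a KO peak across it joins both sides into 1 wide region. How members were chosen moved the value. With regions ranked by their longest single peak it was 4.77 percentage points. With the 1000 widest regions taken from the 3 f/f lists alone it was 1.22, the starts of 409 regions being covered in 95.6%, 97.6% and 99.5% in f/f and in 100%, 99.8% and 96.6% in KO. With those from the 3 KO lists alone it was 7.52. Regions built from 1 group's lists hold only starts that at least 1 of those lists covers, which favours that group. The summit of the peak with the highest −log10 q lay within 250 bp of the start in 54.4%, 54.1% and 53.9% of members in f/f and in 65.4%, 64.4% and 59.7% in KO, a difference of 8.99 percentage points, again described with no test.

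**Figure D3:**
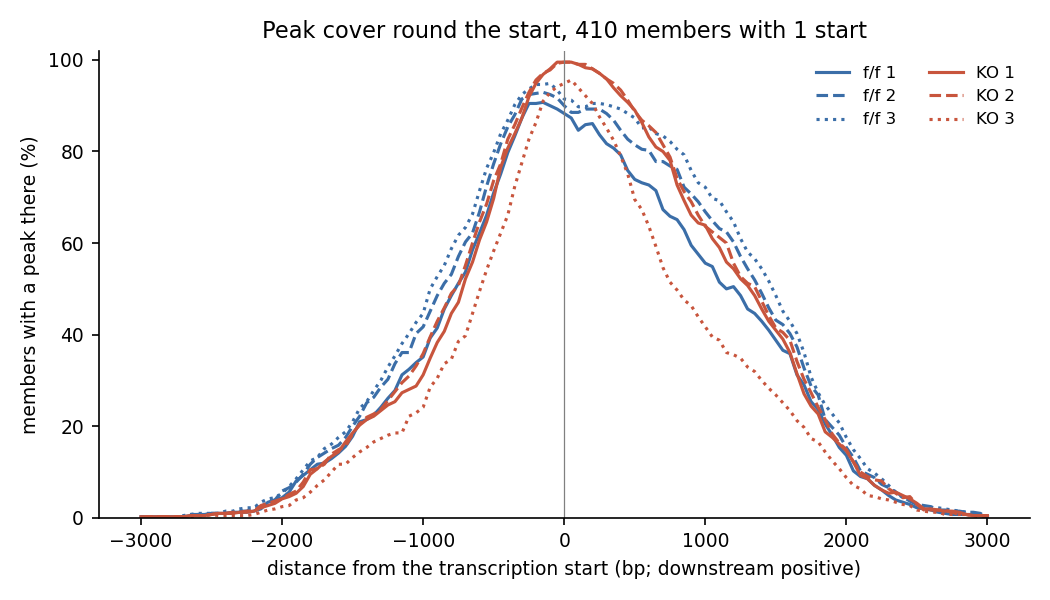
Share in % of the 410 members with 1 start in which a library had a peak (y axis) at each distance in bp from the start (x axis), with f/f libraries in blue and KO libraries in red. At 100 bp downstream the f/f curves stand at 84.6% to 89.8% and the KO curves at 93.9% to 99.0%, whereas at 1000 bp downstream KO replicate 3 is the lowest of the 6.

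Neither pattern was particular to the members. In ranks 1001 to 2000, with 361 such regions, starts were covered in 91.4% to 93.9% of cases in f/f and in 96.4% to 99.4% in KO. In ranks 5001 to 10000, with 1589 regions, the shares were 97.4% to 98.6% in f/f and 94.4% to 98.8% in KO, which overlapped. Over all 7540 regions with 1 start KO and f/f means differed by -1.32 percentage points, and by 1.98 without KO replicate 3. The summit lay near the start more often in all 3 KO than in all 3 f/f libraries in every class of rank, by 6.99 percentage points in ranks 1001 to 2000, 7.71 in ranks 2001 to 5000, 2.55 in ranks 5001 to 10000 and 2.97 over all regions.

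A start covered in 3 KO and 0 f/f libraries was found in 22 of the 410 members (5.37%), beside 0.889% of all 7540 regions with 1 start. The reverse, in 3 f/f and 0 KO libraries, was found in 0 members, beside 0.782% of those regions. This excess is partly built in by the merging. In regions built from the f/f lists alone every start lay under an f/f peak. No such start could occur there, so that choice cannot decide how much is built in. Among the 1000 widest regions of the KO lists alone, where every start lay under a KO peak, there were 21 of 421 (4.99%). All 22 regions had a peak of every f/f library elsewhere in the region, and in 20, 20 and 21 of them the f/f list had peaks on both sides of the start. The gap between these peaks had a median of 424.5, 338.5 and 325.0 bp in f/f replicates 1, 2 and 3. Ordered by width, the 22 lay at Plekho1, Ptch1, Kmt2a, Traf3, Qk, Msl1, Cmip, Kmt2c, Zdhhc18, Atxn2, H1f10, Fbxl14, Med13l, Ckap4, Pitpnm2, Rcc2, Cbfa2t3, Pde4a, Cacna1c, Runx3, Hipk2 and Wnt4. No theme was tested among them. Ptch1 is the hedgehog receptor, Kmt2a and Kmt2c are histone H3 methyltransferases, Cacna1c is a calcium channel subunit, Pde4a a phosphodiesterase and Ckap4 a protein of the endoplasmic reticulum. At Wnt4, a Wnt ligand gene, the f/f lists covered 1537, 1723 and 1843 bp with gaps at the start of 456, 282 and 325 bp, and the KO lists covered 1953, 1967 and 1556 bp with none there. At Runx3, a relative of Runx2, the f/f lists covered 1818, 1843 and 1860 bp with gaps of 259, 296 and 297 bp, and the KO lists 2235, 2102 and 1814 bp. At Ptch1 the gaps were 505, 555 and 460 bp.

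Base composition moved with this pattern. The promoters of the 22 had a median of 81.3% G or C and 50 CG dinucleotides, with the Ptch1, Kmt2a and Atxn2 sequences above among them, while the 345 whose start was covered in all 6 lists had 66.7% and 27. In the 113 members with a promoter of 75% G or C or more, the start was covered in 69.9%, 73.5% and 75.2% of cases in f/f and in 100%, 100% and 94.7% in KO. In the 82 members of under 60% the shares were 93.9%, 97.6% and 98.8% in f/f and 97.6%, 98.8% and 90.2% in KO, and the groups overlapped. Starts were then taken over the whole promoter table, in a region or not. The members' own starts were among them, and the class of base composition was picked after its values in these lists were seen. Of the 1069 starts with 75% G or C or more, f/f lists covered 72.9% to 77.3% and KO lists covered 82.3% to 88.9%, with no overlap. No test is given for that class, since the same lists picked it. In the other classes of base composition the groups overlapped, and no test is given for these either, since they come from the same split. Of all 20063 starts, 52.3%, 53.0% and 54.3% were covered in f/f and 54.2%, 54.3% and 49.3% in KO (exact permutation test, two-sided, p = 0.8, smallest possible 0.1). The part of base composition in the difference between the groups was not tested.

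**Figure D4:**
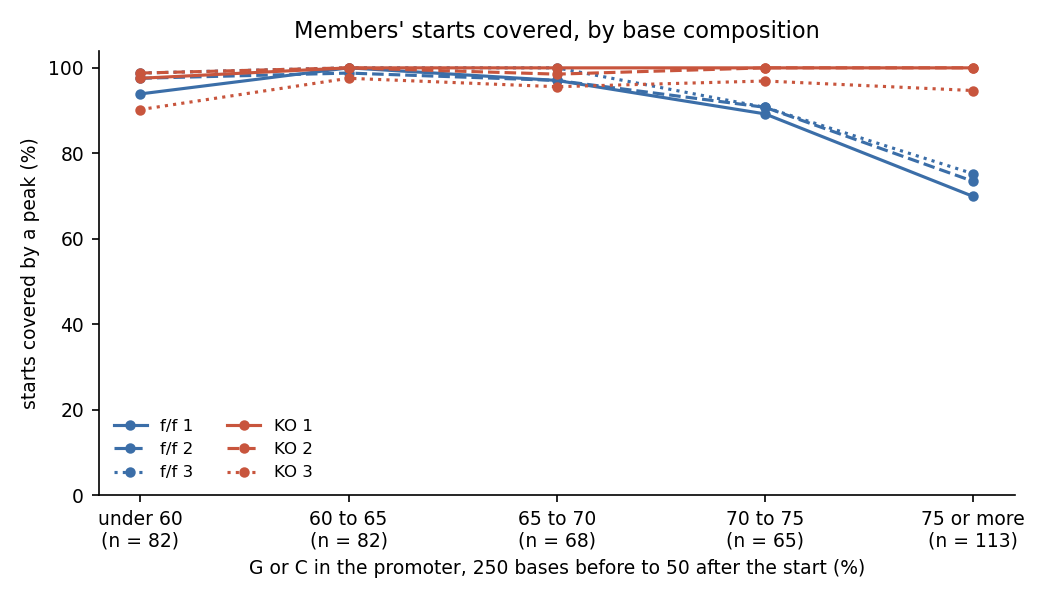
Share in % of members' starts covered by a peak (y axis) in each library, by the share of G or C in the promoter (x axis, with the number of members in each class). The f/f libraries fall to 69.9% to 75.2% in the class of 75% or more, while the KO libraries stay between 94.7% and 100%.

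Regions whose widths did not overlap between the groups were mostly those with f/f above KO, at about the share seen over all regions. In 202 members (20.2%) the lowest f/f covered width exceeded the highest KO width, beside 19.7% of all regions. In 38 (3.80%) the lowest KO width exceeded the highest f/f width, beside 0.754% of all regions and 1.29% of the 29106 in which every library had a peak. In the next 1000 regions by width the shares were 23.5% with f/f above and 3.50% with KO above. The share with KO above was thus not particular to the members. The members' counts depended on single libraries. Without KO replicate 3 the same members gave 203 with f/f above (20.3%, background 19.8%) and 164 with KO above (16.4%, background 8.68%, next 1000 regions 13.3%). With members chosen anew, f/f above made up 45.3% of members when f/f replicate 1 was left out and 34.0% when KO replicate 2 was. KO above made up 6.70% when f/f replicate 3 was left out. With each width taken as a share of its library's sum over the members, both counts were 128 (12.8%), against backgrounds of 17.8% for f/f above and 2.48% for KO above. The next 1000 regions gave 11.7% and 10.7% by this measure. An end of a protein-coding gene lay in 58.9% of the 202, in 65.8% of the 38 and in 60.1% of the other members.

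Besides Ak4, the largest excess of f/f was seen at Acvr1b, covered over 2054, 2317 and 3824 bp in f/f and over 1529, 1391 and 863 bp in KO. The other 3 of the first 5 shared no base with any gene. They lay 7262 bp from Nme9 on chromosome 9 (1282, 2069 and 2522 bp in f/f and 609, 974 and 0 bp in KO), 1597 bp from Ncs1 on chromosome 2 (2289, 2562 and 2639 bp and 1641, 1386 and 203 bp) and 30691 bp from Itga11 on chromosome 9 (1573, 2074 and 2778 bp and 972, 1399 and 0 bp). In all 5 regions KO replicate 3 had the lowest value or shared it at 0. The largest excess of KO was seen at Atxn2, which codes for an RNA-binding protein. There f/f covered 1270, 1468 and 1537 bp and KO 2515, 2557 and 2392 bp, and the f/f gaps at the start spanned 1295, 1190 and 1139 bp. Arid1b, a subunit of the BAF remodeller, was covered over 1631, 1856 and 1936 bp in f/f and over 2780, 2765 and 2697 bp in KO. Lzts2 was covered over 2447, 2721 and 2760 bp and over 3889, 3820 and 2809 bp. The region at Maz, a zinc finger factor that binds G-rich DNA, which also touches Kif22, a kinesin gene on the same strand, was covered over 1620, 1982 and 1661 bp and over 2588, 2591 and 2527 bp. Usf2, a factor that binds E-boxes, was covered over 1075, 1170 and 1294 bp and over 2157, 2113 and 1708 bp. At Atxn2, Arid1b and Maz with Kif22 the 3 KO values differed among themselves by far less than they differed from f/f. These regions were chosen for separated widths and the largest differences, so such a gap is largely built in.

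**Figure D5:**
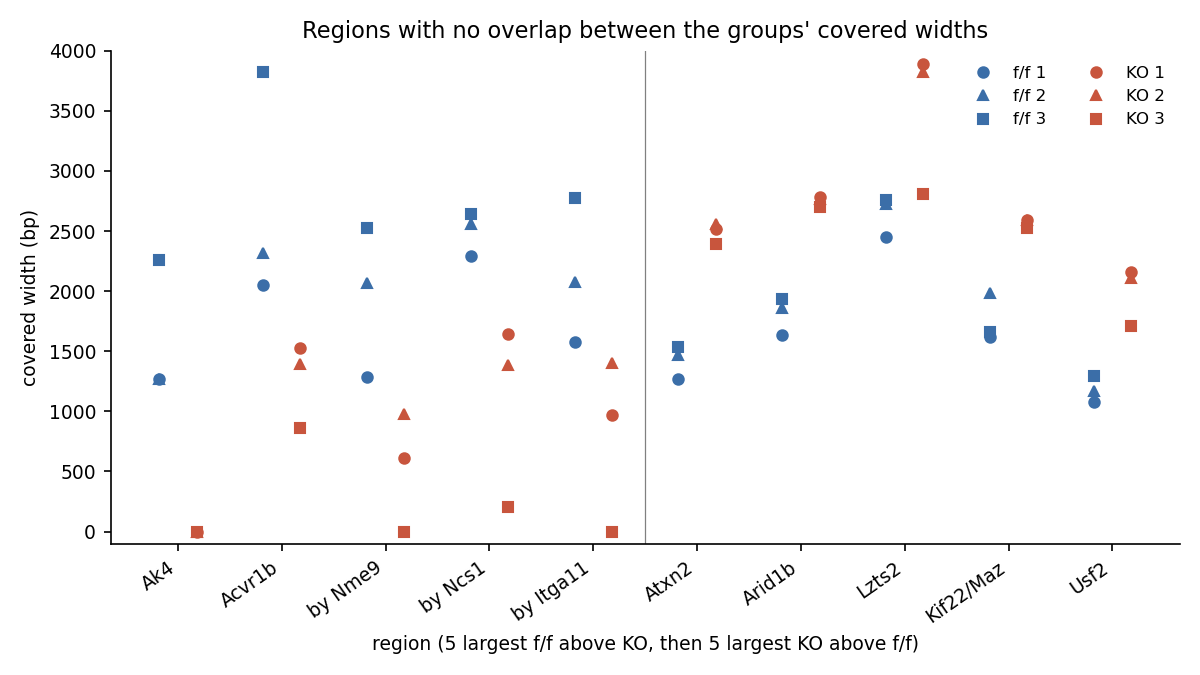
Covered width in bp (y axis) in each library at the 5 regions with the largest excess of f/f (left) and of KO (right), with f/f in blue and KO in red. Regions without a gene carry the name of the nearest protein-coding gene after "by". At Atxn2 the f/f points lie between 1270 and 1537 bp and the KO points between 2392 and 2557 bp.

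Width did not go with a high fold. The fold of a peak over its local background was turned into a percentile within its own list, and the best peak of a region was used. The median over members was 53.6, 58.2 and 54.1 in f/f and 59.6, 59.3 and 57.9 in KO, hence little above the middle of each list, whereas by −log10 q it was 80.0, 81.1 and 83.3 and 83.0, 83.2 and 71.1. The group difference in standing by fold was 3.63 percentile points (exact permutation test, two-sided, p = 0.2). With 3 libraries in each group the smallest possible p of this test was 0.1. The groups overlapped, with f/f replicate 2 above KO replicate 3. The 3 members with the highest standing by fold lay at Gm46900 with Steap1 (mean of 96.3 over the libraries), at Nufip2 (92.6) and at Med13 (89.7), whereas Zmiz1 stood at 28.3 and Fscn1 at 11.04. Of the 50 members with the highest standing by −log10 q, 23 lay on chromosome 15, which held 72 of the 1000 members. The median of the members there was 90.9, against 79.3 for those on the other chromosomes. No rule set beforehand named this chromosome, and its regions outside the members were not compared. The lists held 1.63, 1.37 and 1.25 peaks per member in f/f and 1.40, 1.30 and 1.36 in KO, a difference of -0.061 that lay within the spread of f/f. No test is given for this, since the same peak positions chose the members.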

How the data were processed

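ATAC-seq was done on 3 libraries of each group. According to the study's methods the authors ran Trimmomatic on the reads and BWA for alignment to mm10, and ran MACS2 2.1.2 for peak calling, keeping q-values under 0.05. The deposited files hold 1 list for each library. How duplicate reads and blacklisted regions were treated was not given in the sources used here. The deposited peak lists hold, for each peak, its position, a score, the fold over the local background as a ratio, and −log10 of p and of q, all as the authors' peak caller wrote them.

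From the lists, peaks sharing at least 1 bp were merged and the regions ranked by end minus start on chromosomes 1 to 19. Genes and promoters came from RefSeq tables of GRCm38.p6 (49997 genes with a place, 21900 protein-coding). The reference tables give no genome sequence, and the promoters hold none of chromosome 18. The members and lists were chosen with earlier results of these data known. Covered widths, start cover, summits and peaks per member were described in the members with no test. Other measures, 1 value per library, were compared with an exact permutation test in scipy 1.17.1 (Python 3.11.15, pandas 2.3.3). With 3 libraries in each group this test has 20 assignments and a smallest possible p of 0.1. A larger p therefore does not show that the groups are alike. A call over regions was read beside its share over all regions. The text names the 20 widest members, the 5 largest differences of group means among separated members in each direction, up to 4 list genes per list by width, the 3 highest by fold and with the most genes, and the 5 regions on each side of rank 1000. Further regions are marked as picked after their values were seen, as are the 22 at uncovered starts. The merging, ranking and start calls were tested on simulated lists. The peak lists give no read depth, so no interval could be set on single values. The promoter sequence of 1 region that the same rule would print is not reported here.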

Additional observations from a re-analysis of the deposited data

How the results depend on the processing

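Of 124 alternative values computed for 10 results, 109 kept their direction and, for shares and widths, stayed within 1.5 times or 1 SD of the value given above. The 109 include the values with a replicate block, which equal the main ones by construction. For standing by fold and peaks per member only the direction was judged, whatever the size. The share of members at an end of a protein-coding gene ran from 60.4% to 60.9% with 1 library left out, merging and ranking anew, and the share with a peak in all libraries from 97.5% to 99.8%. The summed covered width, KO minus f/f, ran from -0.330 to -0.0355 Mb, the latter without KO replicate 3. The share with f/f above KO ran from 20.3% to 45.3% (45.3% without f/f replicate 1, 34.0% without KO replicate 2), and that with KO above f/f from 3.90% to 16.2% (16.2% without KO replicate 3, 6.70% without f/f replicate 3). With fewer libraries these calls are easier to meet. As a share of each library's sum, an alternative added after seeing the data, both were 12.8%. The share with a peak in 1 group alone ran from 0% (without f/f replicate 3) to 0.1%. It was 0.200% with peaks of a −log10 q of 5 or more and 0.600% with the 32958 highest peaks of each list, a setting that gave 6.80% with KO above f/f.

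The difference in starts covered ran from 7.09 to 9.55 percentage points with 1 library left out, was 4.77 with regions ranked by their longest peak, 1.22 with members chosen on the f/f lists alone and 7.52 on the KO lists alone. The difference in summits near the start ran from 7.96 to 10.7. Both results, and these choices of members by group, were added after seeing the data. The difference in standing by fold ran from 2.82 to 5.32 with 1 library left out, was -2.36 by −log10 q, 17.3 with lists of equal length and 0.470 among peaks in the 2000 widest regions. Peaks per member, KO minus f/f, ran from -0.116 to 0.0483 with 1 library left out (0.0483 without f/f replicate 1) and was 0.0480 with lists of equal length. The causes of these shifts were not tested.

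Same-numbered libraries did not deviate together (correlations of their deviations from the group means over members -0.453, 0.120 and -0.513), so the numbers were not taken to pair them. With a replicate block the differences were the same by construction, -0.216 Mb, 3.63, -0.061, 8.05 and 8.99. The exact test over 8 swaps gave p = 0.25 for standing by fold, the smallest possible.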
